A study of Mus musculus with 6 samples.

Results

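The genes described here are 10 pigment enzymes, melanosome proteins and lineage factors of the melanocyte, taken by name from a list and not by their values: Tyr, Tyrp1, Dct, Pmel, Mlana, Gpr143, Oca2, Slc45a2, Mitf and Sox10. All 10 were found by symbol among 55487 Ensembl gene IDs, and all 10 passed the count filter that left 15666 genes for testing. They were read in bulk RNA sequencing libraries of 6 tongue grafts of B16F10, a pigmented mouse melanoma line derived from the C57BL/6 strain. The hosts were C57BL/6J mice labelled WT, in which a retrograde adeno-associated vector carrying Trpv1 in its name had been placed in the cervical lymph nodes 6 weeks before the melanoma cells. In the 3 inhibition grafts the nerves of the nodes carried hM4D(Gi) joined to mCherry; hM4D(Gi) is an engineered inhibitory receptor that answers to a synthetic drug. That drug, deschloroclozapine, was dosed over 12 days, 2 times daily. For the 3 control grafts the vector placed in the nodes carried mCherry alone according to the design text. The sample labels call these controls vehicle-treated, so whether they received the ligand is not settled by the labels. The age and sex of the animals were not given, and nothing stated that each library came from a separate animal, so p-values measure the spread between these samples. Whole grafts were sequenced, with host tissue in them, and in bulk RNA fewer cells of a type and less RNA per cell cannot be told apart.

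Melanocytes make melanin inside melanosomes, organelles related to lysosomes. Tyrosinase oxidises tyrosine, its relatives Tyrp1 and Dct act on later intermediates, and the pigment is laid down on amyloid fibrils made from Pmel. Transport proteins in the melanosome membrane keep the lumen at a pH at which tyrosinase works. The transcription factor Mitf activates most of these genes through E-box sequences, and Sox10, a factor of the neural crest, acts above Mitf and together with it.

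The sequences before the transcription starts of Tyr, Tyrp1, Dct and Mitf are shown because their starts are textbook targets of the lineage factors and because these genes, as described further on, differed in how they varied between grafts. Promoters from RefSeq (GRCm38.p6) were matched for 5 of the 10 genes, these 4 and Oca2; those of Pmel, Mlana, Sox10, Slc45a2 and Gpr143 were not analysed here. Each stretch is the 250 bases before the start, on the gene's own strand. Capitals mark CATGTG on either strand (CACATG when read on the other), the E-box core of Mitf, in Tyr, Tyrp1 and Dct, and TGACGTCA, the palindromic site of the cAMP response factors, in Mitf.
Tyr chr7:87493513-87493762 (- strand): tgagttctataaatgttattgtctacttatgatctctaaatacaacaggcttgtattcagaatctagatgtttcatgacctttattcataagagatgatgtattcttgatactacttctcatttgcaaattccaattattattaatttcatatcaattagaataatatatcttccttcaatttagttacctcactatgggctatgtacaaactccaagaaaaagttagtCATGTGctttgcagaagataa
Tyrp1 chr4:80833963-80834212 (+ strand): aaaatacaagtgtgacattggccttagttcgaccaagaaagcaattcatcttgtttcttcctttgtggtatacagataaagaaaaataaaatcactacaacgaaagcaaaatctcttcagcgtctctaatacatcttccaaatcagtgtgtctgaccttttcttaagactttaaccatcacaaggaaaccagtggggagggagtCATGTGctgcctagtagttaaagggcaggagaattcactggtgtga
Dct chr14:118052247-118052496 (- strand): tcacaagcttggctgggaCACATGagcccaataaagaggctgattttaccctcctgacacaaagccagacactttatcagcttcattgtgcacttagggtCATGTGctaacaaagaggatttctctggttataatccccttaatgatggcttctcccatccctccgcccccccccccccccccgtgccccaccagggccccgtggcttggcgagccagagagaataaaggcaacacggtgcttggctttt
Mitf chr6:97991533-97991782 (+ strand): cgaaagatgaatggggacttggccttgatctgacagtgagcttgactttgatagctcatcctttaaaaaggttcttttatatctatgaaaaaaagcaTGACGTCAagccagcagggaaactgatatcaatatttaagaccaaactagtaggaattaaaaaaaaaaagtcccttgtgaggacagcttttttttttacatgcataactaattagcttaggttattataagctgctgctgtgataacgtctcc
The Mitf stretch precedes the most downstream of the 3 starts listed, and the transcript used in melanocytes is known to begin at the most downstream promoter of the gene. Counted backwards from the start, with -1 the base next to it, CATGTG lay at -21 to -16 in Tyr, at -46 to -41 in Tyrp1, and in Dct at -150 to -145 and, on the other strand, at -232 to -227. For Tyrp1, the GENCODE annotation used for the gene positions begins at 80834123, inside this RefSeq stretch. Its CATGTG therefore lay before the RefSeq start but after the GENCODE start. Oca2, whose stretch is not printed, held CATGTG on the other strand at -186 to -181. In Tyr and Tyrp1 it stood inside the full 11-base M-box AGTCATGTGCT, a word present in 7 of 32851 RefSeq promoters on either strand (0.0213%). The core CATGTG alone was present in 12.3% of the same promoters, the longer TCATGTG, which overlaps it and occurred in all 3 of these enzyme genes, in 3.25%, and TGACGTCA in 1.55%. CACGTG, the other E-box searched, was in 6.02% of all promoters and in none of the stretches of these 5 genes. ACAAAG, a word bound by Sox factors, was in 16.5% of all promoters, at -190 to -185 in Tyrp1 (other strand), at -65 to -60 in Oca2 (other strand) and at -192 to -187 and -141 to -136 in Dct. These are matches of letters, in genes shown because they are textbook targets, so they are no evidence of binding or of enrichment.

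The melanocyte identity of the grafts was plain in the levels. Per length, in TPM (counts divided by merged exon length and scaled to a common total per library), Tyrp1 averaged 9511 ± 2286 over the 6 libraries (SD) and was the 5th most abundant of all genes. Pmel followed at 6431 ± 1190 TPM (9th), Dct at 3759 ± 304 TPM (17th) and Mlana at 2047 ± 97.7 TPM (39th). Slc45a2 (1176 ± 110.0 TPM), Sox10 (656 ± 42.8 TPM), Tyr (481 ± 38.4 TPM) and Mitf (315 ± 81.8 TPM) came next, and Oca2 (64.6 ± 8.95 TPM) and Gpr143 (57.7 ± 20.1 TPM) were the lowest. From Tyrp1 down to Mitf, each gene was above the next in that order in 6 of 6 libraries. The ranges of Tyrp1 (5367 to 12430 TPM) and Pmel (4217 to 7761 TPM) overlapped all the same, and Oca2 was above Gpr143 in 4 of 6 libraries, with overlapping ranges. On coding length in place of exon length, Dct (5217) stood above Pmel (2867) and Tyr (779) above Sox10 (522), so these 2 positions in the order rest on the length used; Tyr has 7108 bases of merged exons and 1599 of coding sequence. Together the 10 genes took 2.77%, 2.44% and 2.33% of all counts in inhibition 1, 2 and 3, against 1.66%, 2.38% and 2.41% in control 1, 2 and 3. Tyrp1, Dct and Pmel made up between 78.6% and 83.6% of that share.

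No melanocyte gene of the 10 was found to differ between inhibition and control grafts. None of the 10 passed the quasi-likelihood test of edgeR at an adjusted p under 0.05 (0 of 10), where 0.0383% of all genes did, and none had an unadjusted p under 0.05 (0 of 10), where 15.4% of all genes did. DESeq2 called 0 of them against 3.5% of all genes, and limma-voom 0 against 0.0%, with 0 members at an unadjusted p under 0.05 in either. In 0 of the 10 did the libraries of the groups lie apart, against 21.3% of all genes. The log2 fold changes, inhibition over control, ran from -0.04 to 0.55 with a median of 0.07, beside a median of 0.00485 for all genes tested, and 9 of 10 were above 0, against 51.0% of all genes. Without control 1 the median was 0.00620 and 5 of 10 were above 0, against 50.9% of all genes. Values below are CPM, in which each library's counts are divided by its TMM-adjusted size, means ± SD over 3 libraries per group, and intervals are 95% intervals of the log2 fold change in edgeR.

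**Figure D1:**
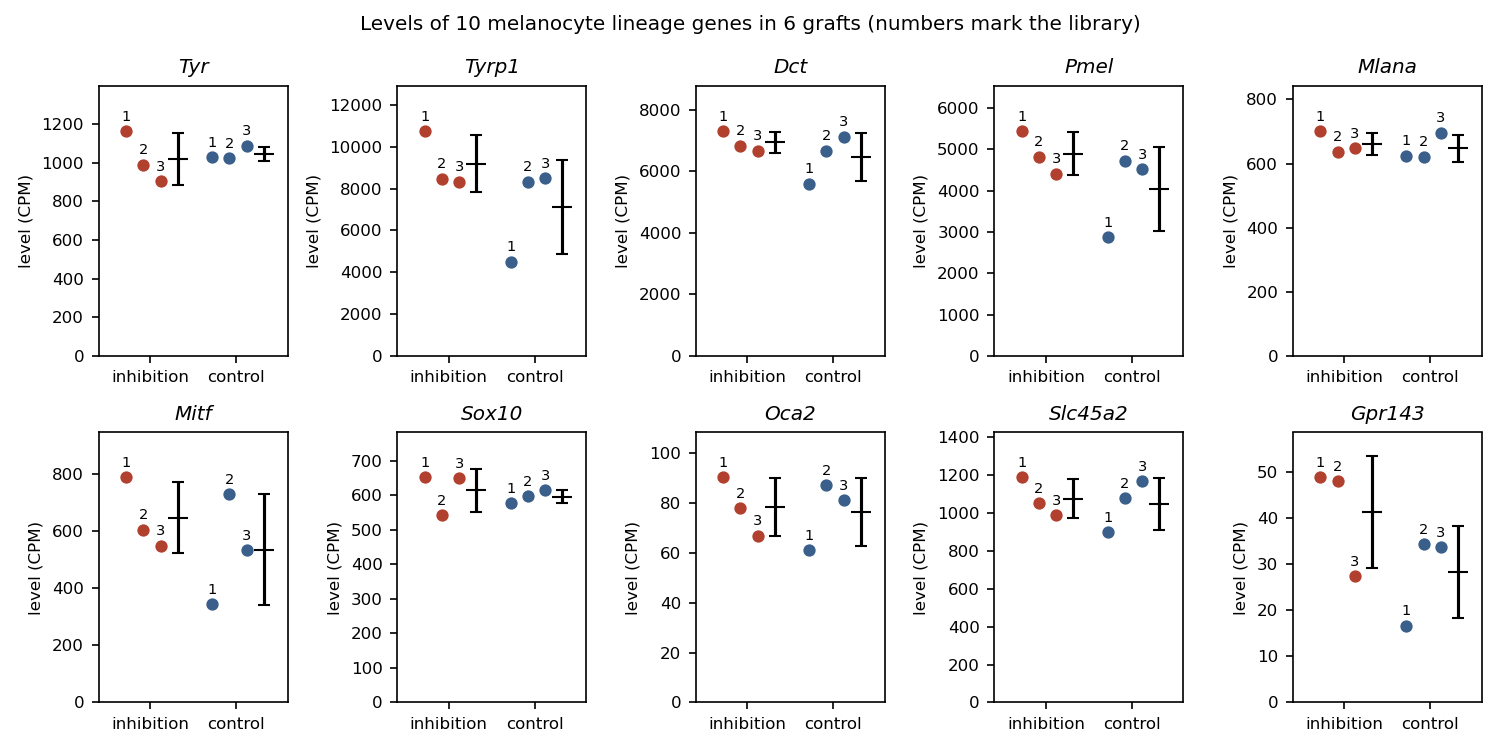
Level of each of the 10 genes in CPM (vertical axis, from 0), with inhibition libraries in red and control libraries in blue, numbered by library; the bar beside each set is the mean ± SD of 3 libraries. The groups overlap in every panel. Inhibition 1 is the highest library of all 10 genes in CPM, narrowly for Sox10, Mlana, Slc45a2 and Gpr143. Control 1 is far below the other libraries for Tyrp1, Pmel, Mitf and Gpr143.

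Among the pigment enzymes, Tyr, the rate-limiting enzyme of melanin synthesis, stood at 1164, 991 and 904 CPM in inhibition 1 to 3 and at 1029, 1024 and 1089 CPM in control 1 to 3. The controls lay inside the range of the inhibition grafts, with means of 1019.7 ± 132 and 1047 ± 35.9 CPM for inhibition and control. The log2 fold change was -0.04 (95% interval -0.26 to 0.18; edgeR adjusted p = 0.869), which spans folds of 0.837 to 1.13. Tyrp1, which oxidises a late indole intermediate in the mouse and stabilises tyrosinase, had 10757, 8467 and 8331 CPM in the inhibition grafts and 4515, 8329.9 and 8504 CPM in the controls. Control 1 was low and the other 5 libraries lay within a fold of 1.29 of each other. The means were 9185 ± 1363 and 7116 ± 2254 CPM, a log2 fold change of 0.37 (-0.26 to 0.999; edgeR adjusted p = 0.528). Dct, the tautomerase that turns dopachrome into its carboxylated indole, had 7315, 6839 and 6675 CPM in the inhibition grafts and 5606, 6675 and 7135 CPM in the controls. Its log2 fold change was 0.10 (-0.12 to 0.32; edgeR adjusted p = 0.646).

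Among the structural and membrane proteins, Pmel, the fibril-forming protein of the early melanosome, had 5441, 4816.5 and 4408 CPM in the inhibition grafts and 2875, 4725 and 4522 CPM in the controls. As for Tyrp1, control 1 alone was low, and control 2 and 3 lay within the range of the inhibition grafts. The means were 4889 ± 520.4 and 4041 ± 1014 CPM (log2 fold change 0.27, interval -0.17 to 0.72; edgeR adjusted p = 0.514). Mlana, a small membrane protein that binds Pmel and is needed for its maturation, was the steadiest of the 10, with 701, 637 and 648 CPM in the inhibition grafts and 624, 622 and 696 CPM in the controls. Its log2 fold change of 0.03 had the narrowest interval of the 10 (-0.14 to 0.21; edgeR adjusted p = 0.863), which spans folds of 0.907 to 1.154. Gpr143, a receptor of the melanosome membrane that governs melanosome number and size, was the least steady, with 48.9, 48.1 and 27.4 CPM in the inhibition grafts and 16.7, 34.4 and 33.8 CPM in the controls. Inhibition 1 and 2 were above all controls, whereas inhibition 3 was below control 2 and 3. Its log2 fold change was 0.55 with the widest interval of the 10 (-0.33 to 1.43; edgeR adjusted p = 0.499), so folds from 0.795 to 2.69 were within its error.

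Of the transporters, Oca2, a chloride channel component of the melanosome, had 90.3, 78.0 and 67.0 CPM in the inhibition grafts and 61.1, 87.3 and 81.3 CPM in the controls (log2 fold change 0.03, interval -0.32 to 0.39; edgeR adjusted p = 0.935). Slc45a2, which keeps the maturing melanosome from acidifying, had 1187, 1053 and 988 CPM in the inhibition grafts and 898, 1079 and 1166.5 CPM in the controls (0.04, interval -0.21 to 0.28; edgeR adjusted p = 0.890). For both, inhibition 1 was highest, control 1 lowest, and inhibition 3 below control 2 and 3.

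Of the lineage factors, Mitf had 788, 605 and 549 CPM in the inhibition grafts and 343, 729.8 and 533 CPM in the controls. The controls spanned more than the inhibition grafts did, with control 1 lowest of all 6 and control 2 second to inhibition 1. The means were 647 ± 125 and 535 ± 193 CPM (log2 fold change 0.27, interval -0.46 to 1.01; edgeR adjusted p = 0.693), and folds from 0.726 to 2.02 lay within the error. Mitf has 8 annotated transcripts with several starts, which also serve other cells such as macrophages, and a count per gene cannot tell them apart. Sox10 had 651, 543 and 649 CPM in the inhibition grafts and 577, 597 and 614 CPM in the controls (0.04, interval -0.15 to 0.24; edgeR adjusted p = 0.832). Sox10 is also a factor of Schwann cells, whose 14 markers, none of them at 0 in all libraries (0 of 14), summed to between 306 and 395 CPM in the inhibition grafts and between 335 and 385 CPM in the controls. Of the 14, 12 passed the count filter, and Mbp alone gave 83.05 to 133.7 CPM. Which cells gave these reads was not tested.

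**Figure D2:**
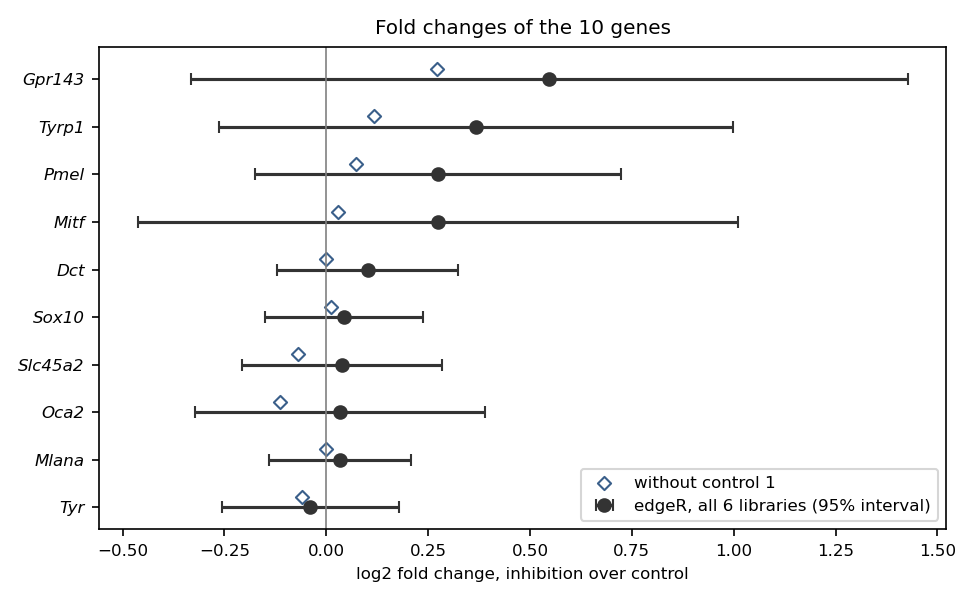
Log2 fold change of each gene, inhibition over control (horizontal axis), with its 95% interval in edgeR over all 6 libraries (black), and the estimate without control 1 (open diamonds). Every interval spans 0, and without control 1 the estimates of Tyrp1, Pmel, Mitf and Gpr143 were 0.12, 0.07, 0.03 and 0.27.

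The main variation among the 10 genes lay within the groups, in single grafts. Control 1 was the lowest library for 7 of the 10, against 27.0% of all genes, and inhibition 1 the highest in CPM for 10 of 10, against 17.8% of all genes. The lead of inhibition 1 was narrow for Sox10, Mlana, Slc45a2 and Gpr143. In TPM inhibition 1 was the highest for 9 of 10, since Sox10 was at 698 TPM there and at 706 TPM in inhibition 3. The genes were not equally low in control 1. Gpr143, Tyrp1, Mitf and Pmel lay below the mean of the other 5 libraries by log2 differences of -1.20, -0.98, -0.90 and -0.73, whereas Oca2 (-0.40), Dct (-0.31) and Slc45a2 (-0.29) were moderately lower. Mlana (-0.08), Sox10 (-0.08) and Tyr (-0.0075) were at the level of the other grafts. A gap of 0.7 or more, a size chosen after these values were seen, was found in 3.22% of the 8041 genes with a mean of at least 20 CPM. Tyr and Tyrp1, which share the M-box shown above, lay on opposite sides of this split. Dct, whose nearer site differs from that M-box only at its first base, lay between them. Any link between these words and the levels was not tested.

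**Figure D3:**
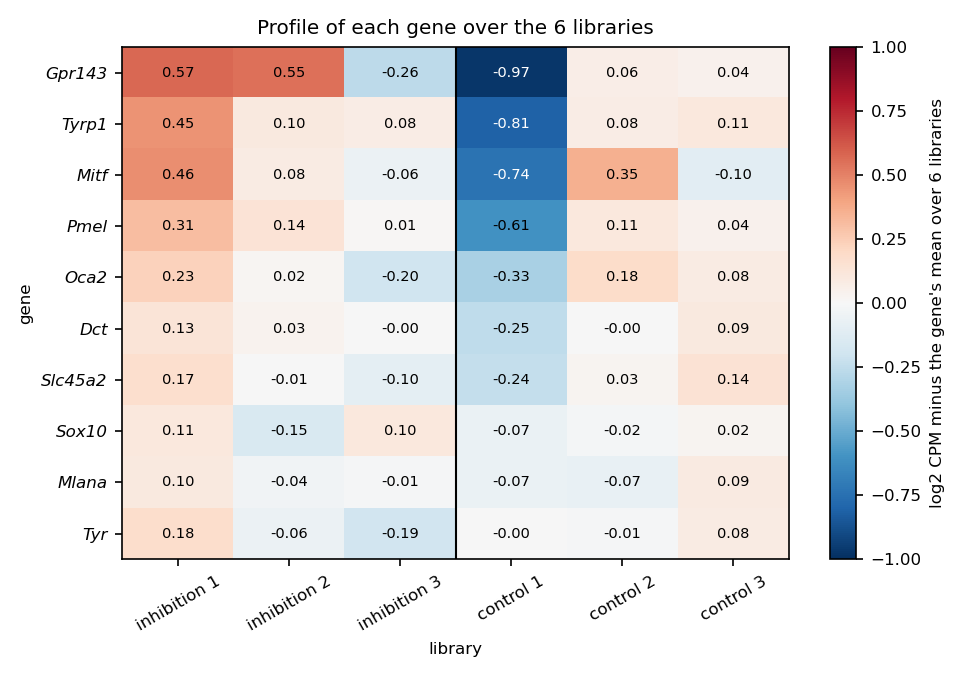
Log2 CPM of each gene less its own mean over the 6 libraries, with libraries as columns (inhibition left of the line, control right) and genes as rows, ordered by their gap in control 1. The column of control 1 runs from -0.97 for Gpr143 to close to 0 for Tyr, and all 10 values of inhibition 1 are above 0.

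Proportions between the genes, which do not depend on the scaling of libraries, showed the same split. The log2 ratio of Tyrp1 to Tyr was 3.21, 3.10 and 3.20 in inhibition 1 to 3 and 2.13, 3.02 and 2.97 in control 1 to 3. Control 1 was far below the other 5 libraries. The 3 inhibition grafts were above all 3 controls, narrowly so for inhibition 2 and control 2. How many pairs of genes lie apart in this way was not computed. Mitf to Sox10 gave 0.27, 0.16 and -0.24 in the inhibition grafts and -0.75, 0.29 and -0.21 in the controls, again with control 1 lowest. Its groups overlapped. So did those of Dct to Tyr (2.65, 2.79 and 2.88 in inhibition, 2.45, 2.70 and 2.71 in control). Tyrp1 to Mitf overlapped too (3.77, 3.81 and 3.92, against 3.72, 3.51 and 3.997). Mitf to Pmel stayed between -3.09 and -2.70 and Tyrp1 to Pmel between 0.65 and 0.98, the tightest ratio of any other member to Pmel. Of the 9 ratios to Pmel, 3 did not overlap between the groups, against 17.0% of all genes. They were Tyr (-2.23, -2.28 and -2.29 in inhibition, -1.48, -2.21 and -2.05 in control), Slc45a2 (-2.20, -2.19 and -2.16, against -1.68, -2.13 and -1.96) and Oca2 (-5.91, -5.95 and -6.04, against -5.56, -5.76 and -5.80). In Tyr (inhibition 1 and control 2) and in Slc45a2 (inhibition 3 and control 2) the gap between the nearest libraries was narrow beside the spread of the controls. No test was made of these ratios.

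**Figure D4:**
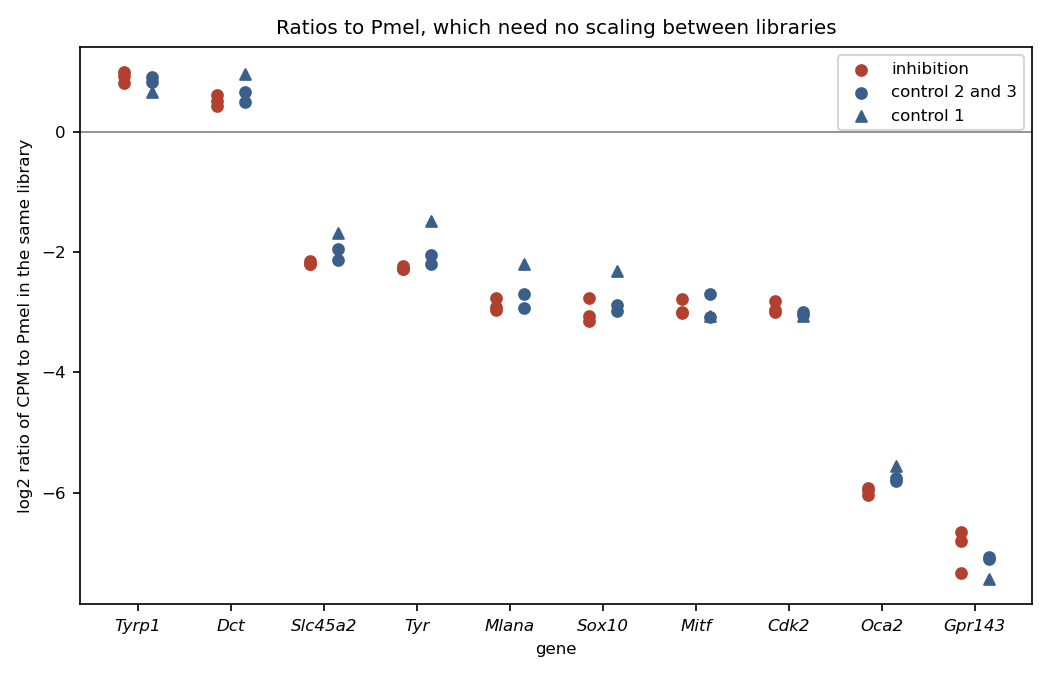
Log2 ratio of the CPM of each gene to that of Pmel in the same library (vertical axis), with inhibition in red on the left and control in blue on the right of each gene, and control 1 as a triangle. For Tyr, Mlana and Sox10 the triangle is well above the other points, at -1.48, -2.20 and -2.32, whereas for Mitf and Cdk2, the neighbour of Pmel, it lies among or beside them.

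Host tissue in the grafts differed between libraries and, in DESeq2, between the groups. DESeq2 called 10 of 19 tested muscle markers and 10 of 16 fibroblast markers higher in inhibition. It also called 3 of 18 epithelium, 2 of 10 endothelium, 1 of 14 macrophage and 1 of 12 Schwann cell markers higher. Of the neutrophil markers it called 4 of 9 lower. DESeq2 called 3.5% of all genes, whereas edgeR and limma-voom called 0 of these markers. The 20 skeletal muscle markers summed to 4512, 4006 and 2550 CPM in inhibition 1 to 3 and to 927, 2137 and 1313 CPM in control 1 to 3, and 16 fibroblast markers to between 2192 and 2903 CPM in inhibition and between 1216 and 1874 CPM in control grafts. Inhibition 1, where muscle markers were highest, was also where all 10 melanocyte genes were highest in CPM (9 of 10 in TPM), and control 1, where muscle and fibroblast markers were lowest, was where Tyrp1, Pmel, Mitf and Gpr143 were lowest. The 12 neutrophil markers ran the other way, with sums of 9.74, 10.6 and 32.8 CPM in the inhibition grafts and 101, 40.1 and 76.9 CPM in the controls, highest in control 1. Markers of squamous epithelium (20 markers, 2003 to 5577 CPM in inhibition, 1671 to 3297 CPM in control), macrophages (14 markers, 396 to 467 CPM and 243 to 421 CPM) and endothelium (10 markers, 346 to 394 CPM and 189 to 322 CPM) were present too. T cell markers were very low (10 markers, 6.20 to 7.24 CPM and 4.99 to 10.5 CPM). Only 2 of these 10 passed the count filter, and Lck alone made up most of their sum. No marker of these 7 lists was at 0 in all libraries. The most abundant marker of each list was Acta1 for muscle (859 ± 141 and 398 ± 123 CPM), Fn1 for fibroblasts (637 ± 107 and 428 ± 83.0 CPM), Krt13 for epithelium (1720.1 ± 971 and 811 ± 484 CPM), Lyz2 for macrophages (138.5 ± 24.6 and 86.5 ± 32.1 CPM), Cdh5 for endothelium (88.7 ± 12.7 and 58.2 ± 16.8 CPM), S100a9 for neutrophils (3.98 ± 5.72 and 28.1 ± 14.0 CPM), Lck for T cells (4.59 ± 0.495 and 4.99 ± 1.29 CPM) and Mbp for Schwann cells (116 ± 19.8 and 104 ± 22.8 CPM), each in inhibition and control grafts. The part of host content in the values of the melanocyte genes was not tested. With muscle, epithelium and fibroblast markers left out before scaling, the median log2 fold change of the 10 genes was 0.0652.

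Pmel has close neighbours, which bears on its count. Cdk2, a cell cycle kinase and itself a known target of Mitf, lies on the opposite strand and shares 34 exon bases with Pmel, and Dgka, a lipid kinase gene on that strand, shares 105. Cdk2 counts were 12.5%, 14.3% and 12.8% of those of Pmel in inhibition 1 to 3 and 12.0%, 12.5% and 12.1% in control 1 to 3. Cdk2 averaged 644 ± 69.1 and 495 ± 132 CPM in inhibition and control grafts (log2 fold change 0.38, edgeR adjusted p = 0.421). The strand setting of the counting was not given, so reads of Pmel that run into Cdk2 and reads of Cdk2 itself cannot be told apart. Dgka had at most 261 counts in a library against at least 47650 for Pmel. The antisense gene 4930435M08Rik lies within Dct and shares 0 exon bases with it, with 35, 73 and 64 counts in inhibition grafts and 35, 32 and 24 counts in controls.

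In the wider pigment pathway, too, no listed gene passed the test. Of all genes, 0.0383% passed in edgeR, 3.5% in DESeq2 and 0.0% in limma-voom. With such small shares, counts of 0 in the 3 lists below say little about these genes. Of 35 genes for the building and transport of melanosomes, all 35 were tested and 0 passed in edgeR, DESeq2 or limma-voom; their median log2 fold change was 0.04, with 2 genes above and 2 below 0 among those of unadjusted edgeR p under 0.05, by which 8.36% of all genes were higher and 7.0% lower. Those were Bloc1s3 (-0.40) and Bloc1s2 (-0.32), subunits of a complex that sorts cargo to melanosomes, Ap3s1 (0.22), of the AP-3 adaptor, and Hps4 (0.44), of a complex that activates Rab32 and Rab38. Their edgeR adjusted p were 0.223, 0.271, 0.303 and 0.304. Bloc1s3 had 12.3, 15.02 and 13.1 CPM in the inhibition grafts and 19.5, 16.5 and 17.4 CPM in the controls. These groups did not overlap, as in 21.3% of all genes, and Bloc1s3 was named for its small p. In this list 17 of 35 genes were lowest in control 1.

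Of 20 lineage regulators and receptors, 17 were tested and 0 passed in any of the 3 tools; the median was 0.15, and 2 were higher and 0 lower by the same unadjusted threshold. The smallest p belonged to Adamts20, a protease on which melanoblast survival depends (21.9 ± 2.84 and 16.7 ± 1.35 CPM in inhibition and control grafts, log2 fold change 0.39, edgeR adjusted p = 0.224). Sox9, a Sox factor shared with cartilage and epithelium, came next (11.2 ± 3.12 and 6.58 ± 2.57 CPM, log2 fold change 0.76, edgeR adjusted p = 0.312). Snai2, a repressor of the neural crest (0.60, edgeR adjusted p = 0.341), and Kit, the stem cell factor receptor (0.55, edgeR adjusted p = 0.366), were the other two named. Of the 17 tested, 9 were lowest in control 1.

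Of 27 genes of the Mitf family and of Mitf targets outside pigment making, 23 were tested and 0 passed in any of the 3 tools; the median was 0.12, and 2 were higher and 1 lower by that threshold. Tfeb, the relative of Mitf that drives lysosome genes, stood at 64.3, 55.1 and 55.8 CPM in the inhibition grafts and 50.03, 45.5 and 47.0 CPM in the controls (log2 fold change 0.30, edgeR adjusted p = 0.203). Its groups did not overlap, as in 21.3% of all genes, and it too was named for its small p. Dapk2, a kinase (0.63, edgeR adjusted p = 0.311), and Mcoln1, a lysosomal calcium channel (0.18, edgeR adjusted p = 0.400), had positive values too. Cdkn1a, the cell cycle inhibitor p21, had 118, 134 and 196 CPM in the inhibition grafts and 392, 186 and 242 CPM in the controls (-0.87, edgeR adjusted p = 0.320). It was highest in control 1, the graft in which Mitf was lowest, and any link to Mitf was not tested. In this list 10 of 23 genes were lowest in control 1, and Birc7 was at 0 in all libraries.

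The profile of the 10 genes over the 6 libraries, as the mean of their centred log2 CPM, was 0.27, 0.07 and -0.06 in inhibition 1 to 3 and -0.41, 0.07 and 0.06 in control 1 to 3. Among 11220 other genes with a mean of at least 5 CPM, the 5 with the smallest root mean square distance from it were Vegfb (0.0307), Lima1 (0.0347), Tti1 (0.0358), Ormdl2 (0.0430) and Daam1 (0.0446), where the median distance was 0.251. Of the 10 genes themselves, Oca2 (0.0823), Pmel (0.0943), Dct (0.0956) and Slc45a2 (0.0959) were the closest to their common mean and Gpr143 (0.336) the farthest. Likeness over 6 libraries that share 1 low and 1 high graft is a description only.

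The genomic positions, on GRCm38, were as follows, all annotated as protein-coding. Tyr (ENSMUSG00000004651) lies on chromosome 7 from 87424771 to 87493512, and Oca2 (ENSMUSG00000030450) on the same chromosome from 56239760 to 56536518. Tyrp1 (ENSMUSG00000005994) lies on chromosome 4 from 80834123 to 80851719, and Dct (ENSMUSG00000022129) on chromosome 14 from 118012790 to 118052244. Pmel (ENSMUSG00000025359) spans 128704195 to 128720238 of chromosome 10, and Mlana (ENSMUSG00000024806) 29697824 to 29708634 of chromosome 19. Mitf (ENSMUSG00000035158) spans 97807052 to 98021349 of chromosome 6, and Gpr143 (ENSMUSG00000025333) 152781921 to 152808646 of chromosome X. Sox10 (ENSMUSG00000033006, 79154908 to 79165240) and Slc45a2 (ENSMUSG00000022243, 11000721 to 11029233) both lie on chromosome 15.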

How the data were processed

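Raw counts of reads per gene, whole numbers that differ in total between the 6 libraries, were deposited by the authors in a single table. Reads were aligned with HISAT2 2.0 to mm10, per the submitters' processing notes. How they were counted, against which annotation release and with which strand setting, is not given in the sources used here. Columns headed as denervation were matched to the titles that speak of nerve inhibition, and 0 columns were unused. Totals were 14477277 to 20972494 counts, and no library repeated another (chi-square over degrees of freedom at least 8.29 within a group). Symbols were matched for 55141 of 55487 IDs; the other 346 carried 0.0575% of counts. Lengths and positions came from GENCODE M21 (GRCm38, which mm10 names), promoters from RefSeq (GRCm38.p6).

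Genes were kept with filterByExpr (count minimum 10, total minimum 15), scaled with TMM and tested with the robust quasi-likelihood fit of edgeR 4.0.16 in R 4.3.3, inhibition over control, without covariates, with Benjamini-Hochberg adjustment over 15666 genes at 0.05. The standard error is the absolute log2 fold change over the root of the F statistic. The fit was tested on simulated counts. It recovered 78 of 100 genes changed 2-fold and 89 of 100 changed 4-fold, and called 9 of 15221 unchanged genes. Smaller changes were not simulated. Log2 profiles used a prior count of 2. Alternatives were RLE factors, host marker genes left out before scaling, no filter, DESeq2 1.42.0, limma-voom (limma 3.58.1), the replicate number as a block and each library left out; coding length was added after the data were seen.

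The members and gene lists were chosen with earlier results of these data known. Named were the 10 members, up to 4 genes of each of 3 pathway lists (called, or else those of smallest p), the 5 genes nearest in profile, the top gene of each of 8 marker lists, and genes overlapping a member.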

Additional observations from a re-analysis of the deposited data

How the results depend on the processing

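The number of genes called over the whole table moved with the test: 6 in edgeR with TMM, 1187 without the filter, 527 with DESeq2, 0 with limma-voom (2430 at an unadjusted p under 0.05) and 14 with the replicate number as a block. Leaving out single libraries gave 0 to 217 calls: 0 without inhibition 1, inhibition 2 or control 3 (1425, 1705 and 2188 at an unadjusted p under 0.05), 11 without control 1, 24 without control 2 and 217 without inhibition 3. None of the 10 melanocyte genes was called in any of these 12 alternatives (0 of 10 each; Pmel without the filter had the smallest adjusted p, 0.151, and was the 1 member at an unadjusted p under 0.05). Their median log2 fold change ran from 0.00620 without control 1 to 0.145 without control 3. Of 120 values of single genes 109 kept their sign. The 11 that turned all came from leaving out a library, and the farthest from 0 was -0.113 for Oca2 without control 1. Over all 12 alternatives the log2 fold change ran from -0.0196 to 0.0818 for Mlana, -0.00996 to 0.12 for Sox10 and -0.11 to 0.12 for Oca2. It ran from -0.0700 to 0.12 for Slc45a2, -0.15 to 0.0286 for Tyr and -0.000298 to 0.17 for Dct. Without control 1 the value was 0.12 for Tyrp1, 0.07 for Pmel, 0.03 for Mitf and 0.27 for Gpr143. Libraries with the same number deviated from their group means with correlations of -0.18, 0.327 and 0.0865 across genes, so the numbers were not taken as pairs; with the replicate block the member median was 0.0748. With 3 libraries per group, the upper limits of the 95% intervals still held folds of 1.999 for Tyrp1, 2.02 for Mitf and 2.69 for Gpr143.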
